A study of Mus musculus with 8 samples.

Results

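The miR-199 and miR-214 microRNAs of fibroblasts were represented by 5 names on the mouse microRNA array: mmu-miR-199a-5p, mmu-miR-199a-3p, mmu-miR-214, mmu-miR-214* and mmu-miR-199b*, written below without the species prefix. They were taken by exact match of the array's microRNA name, and are 5 of the 611 mouse microRNAs measured. All 5 were detected on all 8 arrays and passed the detection filter, which left 243 mouse microRNAs to be tested. The cells were mouse embryonic fibroblasts of strain C57BL/6J and genotype Csk-/-, so every group, the controls included, lacked endogenous Csk, the kinase that phosphorylates and restrains Src family kinases. The 4 groups of 2 arrays were cells given Csk together with c-Src (Csk+Src), cells given Csk alone (Csk), cells given c-Src alone (Src), and cells given an empty vector (mock). Total RNA was hybridised to 1-colour Agilent arrays. By their labels the 2 arrays of a group are biological replicates, but the series text speaks only of duplicate runs. The p-values therefore measure the spread between these arrays, which may be technical. The sources used here do not say whether a transfected population was a clone or a pool.

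Most of these microRNAs come from Dnm3os, a noncoding RNA transcribed from the strand opposite to the Dnm3 gene, which is cut into the hairpins of miR-199a and miR-214. In the mouse embryo Dnm3os is made in mesenchyme and is needed for normal growth of the skeleton, and the transcription factor Twist1 is known to switch it on through an E-box. A hairpin yields one microRNA from its 5′ arm and one from its 3′ arm, and the less abundant one was given an asterisk in the older names used by the array. miR-199a-5p is known to repress Hif1a in heart muscle cells, miR-199a-3p to repress Mtor and Met in human cells, and miR-214 to repress Ezh2.

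Mature sequences were found in RefSeq (GRCm38.p6) for 4 of the 5 microRNAs. They are shown because the seed (bases 2 to 8, in capitals) decides which messages a microRNA pairs with, and because the identity between copies decides what a probe can tell apart. miR-199b* is named for the Mir199b hairpin.
miR-199a-5p: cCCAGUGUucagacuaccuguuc
miR-199a-3p: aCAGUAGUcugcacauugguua
miR-214: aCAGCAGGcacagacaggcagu
miR-214*: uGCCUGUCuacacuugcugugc
No 2 of these 4 share a seed, and miR-199b* is not among them. miR-214 has the seed CAGCAGG in common with miR-761, which was detected on 0 arrays. miR-199a-5p and miR-199a-3p are each encoded at 2 places, at chr1:162217844-162217866 and chr1:162217883-162217904 on the plus strand (Mir199a-2), and at chr9:21496537-21496559 and chr9:21496498-21496519 on the minus strand (Mir199a-1). miR-214 lies at chr1:162223438-162223459 and miR-214* at chr1:162223397-162223418, both on the plus strand. Below, miR-199a-5p, miR-214 and miR-214* are called the Dnm3os arms, although miR-199a-5p has its copy on chromosome 9 as well. The name is a short form and leaves out miR-199a-3p, which is also an arm of Mir199a-2 within Dnm3os. miR-199a-3p did not move with them, at -0.25 in Csk against mock and -0.01 in Csk+Src against Csk. What is said of the Dnm3os arms therefore does not hold for every product of the transcript.

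The hairpins show how the members are related. Mir199a-2 (chr1:162217814-162217923) and Mir214 (chr1:162223368-162223477) lie within Dnm3os on the plus strand, with 5444 bases between them, opposite to Dnm3 on the minus strand. Mir199b (chr2:32318460-32318569, plus strand) lies opposite to Dnm1, and Mir199a-1 (chr9:21496495-21496564, minus strand) opposite to Dnm2. The annotated mature arms are in capitals.
Mir199a-2: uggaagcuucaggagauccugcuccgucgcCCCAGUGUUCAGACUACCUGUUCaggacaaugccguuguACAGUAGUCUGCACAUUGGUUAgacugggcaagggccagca
Mir214: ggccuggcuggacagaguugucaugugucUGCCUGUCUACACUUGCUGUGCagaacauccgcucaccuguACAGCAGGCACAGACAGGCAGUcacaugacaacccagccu
Mir199b: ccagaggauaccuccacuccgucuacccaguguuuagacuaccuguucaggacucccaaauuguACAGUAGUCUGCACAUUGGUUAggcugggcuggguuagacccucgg
The 22 bases of miR-199a-3p are identical to the annotated mature arm of Mir199b, so signal named miR-199a-3p cannot be assigned to chromosome 1, 9 or 2. miR-199a-5p matches the Mir199b hairpin at 22 of its 23 bases. The difference is C10U, counted from 1 at the 5′ end of miR-199a-5p with its base first and the base of Mir199b last, and it lies outside the seed. The matching stretch of Mir199b, which lies before the annotated arm, therefore holds the seed CCAGUGU of miR-199a-5p. No mature entry was matched for miR-199b*, so its own seed is not given here. Whether the probes of miR-199b* and miR-199a-5p also read each other's microRNA was not tested.

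The promoter of Dnm3os, the transcript that holds Mir199a-2 and Mir214, is shown with matches to the E-box CANNTG in capitals. It spans chr1:162217373-162217672 on the plus strand, 250 bases before the start and 50 after it.
Dnm3os: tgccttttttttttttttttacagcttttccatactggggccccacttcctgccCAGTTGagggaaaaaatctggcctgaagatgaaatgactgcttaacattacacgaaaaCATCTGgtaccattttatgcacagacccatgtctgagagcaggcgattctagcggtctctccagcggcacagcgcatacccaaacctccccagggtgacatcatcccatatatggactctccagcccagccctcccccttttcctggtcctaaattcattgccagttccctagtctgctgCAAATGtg
It holds 3 E-box matches, and 72.3% of 32817 mouse promoters of the same length hold at least 1. The AP-1 letters TGANTCA and the STAT letters TTCNNNGAA had 0 matches, against 7.81% and 8.29% of promoters with at least 1. The E-box, AP-1 and STAT letters read the same on both strands, and the matches do not overlap. Whether these matches have a part in the levels below was not tested.

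A single slide, scanned once, carried the 8 arrays, and every group filled a slide column of its own. Slide column and group therefore cannot be told apart for any value below. Between 201 and 250 mouse microRNAs were detected per array. Csk array 2 stood apart with 696 spots excluded as outliers, against 270 to 351 on the others, and with the fewest detections, so results that rest on it are also given without it. Over the tested microRNAs, which are not independent replicates, Pearson's r was 0.9958 to 0.9985 within groups and 0.9356 to 0.9896 across groups. The arrays have no probe for the transfected genes, so the group labels could not be checked against them. A level here is the summed probe signal of a microRNA divided by the array's 75th percentile, called the scaled signal, and is compared only between arrays and never between microRNAs. Whether groups overlapped is stated for the members only, and the share of all tested microRNAs without overlap was not computed. The RNA comes from whole cultures, in which fewer cells with a microRNA and less of it per cell cannot be told apart.

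miR-199a-5p, the Dnm3os arm with the seed CCAGUGU, was highest with Csk alone and lowest with Csk and c-Src together. Its scaled signal was 0.389 and 0.378 on the Csk+Src arrays, 0.688 and 0.684 on the Csk arrays, 0.501 and 0.527 on the Src arrays, and 0.520 and 0.526 on the mock arrays. Both Csk arrays lay above, and both Csk+Src arrays below, every other array, and the Src and mock arrays overlapped. As log2 levels the means were -1.38 ± 0.03 (Csk+Src), -0.54 ± 0.005 (Csk), -0.96 ± 0.05 (Src) and -0.94 ± 0.01 (mock; SD, n = 2 each). The order was thus Csk, then mock and Src with no difference beyond their spread, then Csk+Src.

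miR-214, from the Mir214 hairpin of the same transcript, had the same order. The scaled signal was 0.386 and 0.385 on the Csk+Src arrays, 0.725 and 0.780 on the Csk arrays, 0.455 and 0.518 on the Src arrays, and 0.500 and 0.524 on the mock arrays. The Csk arrays were again the highest and the Csk+Src arrays the lowest, with Src and mock overlapping. The log2 means were -1.37 ± 0.002 (Csk+Src), -0.41 ± 0.07 (Csk), -1.04 ± 0.13 (Src) and -0.97 ± 0.05 (mock; SD, n = 2 each).

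miR-214*, the other arm of Mir214, was dim. Its scaled signal was 0.0145 and 0.0162 on the Csk+Src arrays, both under the floor of 0.0193 applied before taking logs, 0.0420 and 0.0355 on the Csk arrays, 0.0267 and 0.0262 on the Src arrays, and 0.0246 and 0.0227 on the mock arrays. The 4 groups did not overlap, with Csk highest and Csk+Src lowest, and Src and mock lay next to each other between them. The log2 means were -5.69 (Csk+Src, both arrays set to the floor), -4.70 ± 0.17 (Csk), -5.24 ± 0.02 (Src) and -5.40 ± 0.09 (mock; SD, n = 2 each). Since the Csk+Src values were raised to the floor, differences against them are understated on this scale.

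miR-199a-3p, the arm shared in sequence with Mir199b, hardly varied. The scaled signal was 1.73 and 1.75 on the Csk+Src arrays, 1.67 and 1.85 on the Csk arrays, 1.66 and 1.8 on the Src arrays, and 2.01 and 2.16 on the mock arrays. Both mock arrays lay above the other 6, and the other 3 groups overlapped one another. The log2 means were 0.80 ± 0.01 (Csk+Src), 0.81 ± 0.11 (Csk), 0.79 ± 0.08 (Src) and 1.06 ± 0.07 (mock; SD, n = 2 each).

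miR-199b*, the member named for the Dnm1 locus, was lowest with Csk alone. The scaled signal was 1.33 and 1.32 on the Csk+Src arrays, 0.774 and 0.783 on the Csk arrays, 0.999 and 1.09 on the Src arrays, and 1.5 and 1.59 on the mock arrays. No 2 groups overlapped, and the order was mock, Csk+Src, Src and Csk. The log2 means were 0.41 ± 0.01 (Csk+Src), -0.36 ± 0.01 (Csk), 0.06 ± 0.09 (Src) and 0.62 ± 0.06 (mock; SD, n = 2 each). In limma's F test for any difference among the 4 groups, 5 of 5 members passed, where 73.7% of all tested microRNAs did. The adjusted p was 8.22e-05 for miR-199a-5p, 0.00016 for miR-199b*, 0.000733 for miR-214, 0.00121 for miR-214* and 0.043 for miR-199a-3p.

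**Figure D1:**
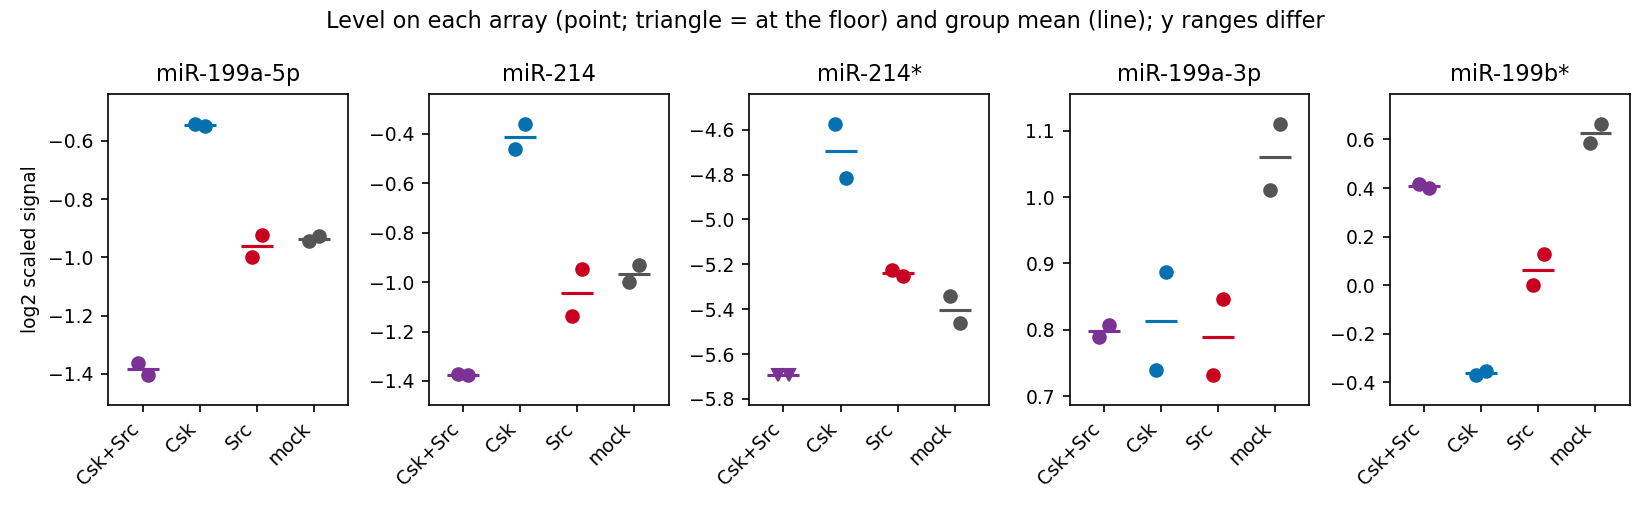
Level of each of the 5 microRNAs on each of the 8 arrays, as log2 of the scaled signal (y axis; its range differs between panels), by group on the x axis (Csk+Src, Csk, Src, mock). Points are arrays, triangles are values set to the floor and lines are group means of 2 arrays; miR-199a-5p, miR-214 and miR-214* are highest in Csk cells, where miR-199b* is lowest.

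The first comparison set cells given Csk against mock cells, with no c-Src added. With Csk the Dnm3os arms miR-199a-5p, miR-214 and miR-214* rose, and miR-199b* and miR-199a-3p fell. In limma's test with Benjamini-Hochberg adjustment over the 243 microRNAs, 5 of 5 members passed at an adjusted p under 0.05, where 55.1% of all tested microRNAs passed, 38.3% higher and 16.9% lower. miR-214* was 1.63-fold higher in Csk than in mock cells (log2 difference 0.71, SE 0.09, adjusted p = 0.00154), miR-214 was 1.47-fold higher (0.55, SE 0.07, adjusted p = 0.002), and miR-199a-5p was 1.31-fold higher (0.39, SE 0.04, adjusted p = 0.000469). The value of miR-214* is a sum over probes, and its only probe well above background gave a smaller rise alone (0.30, adjusted p = 0.0471). miR-199b* was 1.98-fold lower (-0.99, SE 0.05, adjusted p = 8.54e-05). The fall of miR-199a-3p was small (-0.25, SE 0.07, adjusted p = 0.032). The median over the members was 0.39, beside 0.07 over all tested microRNAs, and joins members that moved in opposite directions.

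Without Csk array 2 the rises stood at 0.78 for miR-214* (adjusted p = 0.0045), 0.45 for miR-214 (adjusted p = 0.0076) and 0.35 for miR-199a-5p (adjusted p = 0.00214), and the fall of miR-199b* at -1.04 (adjusted p = 0.00054). These 4 passed in all 8 fits that left out 1 array. The call of miR-199a-3p ended without Csk+Src array 1 (-0.25, adjusted p = 0.0626), Csk+Src array 2 (-0.24, adjusted p = 0.132), Csk array 1 (-0.17, adjusted p = 0.122), Src array 2 (-0.24, adjusted p = 0.0602) or mock array 2 (-0.19, adjusted p = 0.259). After normexp background correction only the fall of miR-199b* passed (-0.81, adjusted p = 0.00735), and miR-214* lay on the other side of 0 (-0.44, adjusted p = 0.214). That setting adds 50 signal units to each spot, and the median of all tested microRNAs lay at -0.29 with it. With quantile normalization miR-199a-5p did not pass (0.18, adjusted p = 0.249).

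The next comparison set cells with and without added c-Src against each other where Csk is present, and it shares the Csk arrays with the one before. Against Csk alone, the 3 Dnm3os arms fell with Csk and c-Src together and miR-199b* rose. Of the members 4 of 5 passed, where 60.9% of all tested microRNAs passed, 19.3% higher and 41.6% lower. miR-214 was 1.95-fold lower in Csk+Src than in Csk cells (-0.96, SE 0.07, adjusted p = 0.000204), and miR-199a-5p was 1.79-fold lower (-0.84, SE 0.04, adjusted p = 3.1e-05). miR-214* stood at -0.998 (SE 0.09, adjusted p = 0.000365), with its Csk+Src arrays at the floor. miR-199b* was 1.71-fold higher (0.77, SE 0.05, adjusted p = 0.000135). The 2 Csk+Src and 2 Csk arrays of each of these did not overlap. How many of all tested microRNAs were without overlap was not computed.

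miR-199a-3p differed by -0.01 (SE 0.07, adjusted p = 0.923) in this comparison. Without Csk array 2, however, it was higher in Csk+Src cells (0.26, adjusted p = 0.0194). It was also higher with the scaling percentile taken over all mouse microRNAs (0.33, adjusted p = 0.0131), with median scaling (0.16, adjusted p = 0.024) and with quantile normalization (0.23, adjusted p = 0.000356). The other 4 members kept direction and call under the 4 other scalings tried and in all 8 fits that left out 1 array. Without Csk array 2 the difference was -0.71 for miR-214 and -0.64 for miR-199a-5p. After normexp background correction miR-214* no longer passed (-0.20, adjusted p = 0.791).

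Csk was also added to cells that carry c-Src, a comparison that shares the Csk+Src arrays with the last. The 3 Dnm3os arms fell with Csk and miR-199b* rose. Here 4 of 5 members passed, where 44.9% of all tested microRNAs passed, 15.6% higher and 29.2% lower. miR-199a-5p was 1.34-fold lower in Csk+Src than in Src cells (-0.42, SE 0.04, adjusted p = 0.000429), miR-214 was 1.26-fold lower (-0.33, SE 0.07, adjusted p = 0.0164) and miR-214* stood at -0.45 (SE 0.09, adjusted p = 0.0103). miR-199b* was 1.27-fold higher (0.35, SE 0.05, adjusted p = 0.00414), and miR-199a-3p differed by 0.01 (SE 0.07, adjusted p = 0.964). The call of miR-214 ended without Csk+Src array 1 (-0.33, adjusted p = 0.074), Csk+Src array 2 (-0.29, adjusted p = 0.197), Csk array 2 (-0.18, adjusted p = 0.0573), Src array 2 (-0.21, adjusted p = 0.0923) or mock array 2 (-0.31, adjusted p = 0.092). That of miR-214* ended without Csk+Src array 1 (-0.44, adjusted p = 0.0558) or Src array 1 (-0.42, adjusted p = 0.0584). It also ended with the deposited total gene signal (-0.04, adjusted p = 0.732) and with the mean of log2 over probes (-0.06, adjusted p = 0.0948). Without Csk array 2 the value of miR-199a-5p was -0.27 (adjusted p = 0.00231). After normexp 0 members passed, and with quantile normalization miR-199b* did not (0.20, adjusted p = 0.137). Without scaling it did not pass either (0.23, adjusted p = 0.0806), and with the percentile over all mouse microRNAs miR-214 (-0.10, adjusted p = 0.345) and miR-214* (-0.33, adjusted p = 0.06) did not.

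With c-Src alone, in cells without Csk, miR-199b* was lower than in mock cells and, by a smaller amount, so was miR-199a-3p. Of the members, 2 of 5 passed, where 44.4% of all tested microRNAs passed, 25.9% higher and 18.5% lower. miR-199b* was 1.48-fold lower in Src than in mock cells (-0.56, SE 0.05, adjusted p = 0.000818), and this passed in all 8 fits that left out 1 array and under the 4 other scalings. miR-199a-3p also passed (-0.27, SE 0.07, adjusted p = 0.0296). The Dnm3os arms did not pass, at -0.03 (SE 0.04, adjusted p = 0.612) for miR-199a-5p, -0.08 (SE 0.07, adjusted p = 0.453) for miR-214 and 0.16 (SE 0.09, adjusted p = 0.196) for miR-214*.

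In Src against mock the scale of the arrays mattered, since the Src arrays were the brightest and the unscaled table shifted the median of all microRNAs by 0.306. In that table miR-199a-5p (0.28, adjusted p = 0.0408), miR-214 (0.23, adjusted p = 0.0472) and miR-214* (0.47, adjusted p = 0.0451) were higher and passed. Only miR-214* of these 3 lay above that shift. miR-199a-3p lay at 0.03 there (adjusted p = 0.723). Its call with scaling ended without Csk+Src array 1 (-0.27, adjusted p = 0.06), Csk+Src array 2 (-0.29, adjusted p = 0.108), Src array 1 (-0.21, adjusted p = 0.125), Src array 2 (-0.35, adjusted p = 0.0663), mock array 1 (-0.32, adjusted p = 0.0543) or mock array 2 (-0.24, adjusted p = 0.215).

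Csk and c-Src together, set against the empty vector, gave 4 of 5 members that fell and 0 that rose, where 34.2% of all tested microRNAs passed, 12.3% higher and 21.8% lower. miR-199a-5p was 1.36-fold lower in Csk+Src than in mock cells (-0.45, SE 0.04, adjusted p = 0.00085), miR-214 was 1.33-fold lower (-0.41, SE 0.07, adjusted p = 0.0117), miR-199a-3p was 1.20-fold lower (-0.26, SE 0.07, adjusted p = 0.0399) and miR-199b* was 1.16-fold lower (-0.22, SE 0.05, adjusted p = 0.0308). miR-214* stood at -0.29 (SE 0.09, adjusted p = 0.0572) and passed with the floor set lower, at the 1st percentile (-0.63, adjusted p = 0.00601). Only miR-199a-5p passed in all 8 fits that left out 1 array, and without scaling 0 members passed. With the percentile over all mouse microRNAs 1 did.

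In Csk+Src against mock, miR-214 did not pass without Csk+Src array 1 (-0.41, adjusted p = 0.0587), Csk+Src array 2 (-0.38, adjusted p = 0.162) or mock array 2 (-0.37, adjusted p = 0.133). miR-199b* did not pass without Csk+Src array 1 (-0.22, adjusted p = 0.103), Csk+Src array 2 (-0.18, adjusted p = 0.308), Csk array 1 (-0.22, adjusted p = 0.0555), Csk array 2 (-0.07, adjusted p = 0.215), mock array 1 (-0.26, adjusted p = 0.0509) or mock array 2 (-0.17, adjusted p = 0.283). miR-199a-3p passed only in the fit without Csk array 1. Without 1 of the other 7 arrays it lay between -0.31 (adjusted p = 0.066, without mock array 1) and -0.11 (adjusted p = 0.116, without Csk array 2), with adjusted p up to 0.308. Without Csk array 2 miR-214 still passed, at -0.26 (adjusted p = 0.0272). miR-214* passed without Csk array 1 (-0.28, adjusted p = 0.0206).

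**Figure D2:**
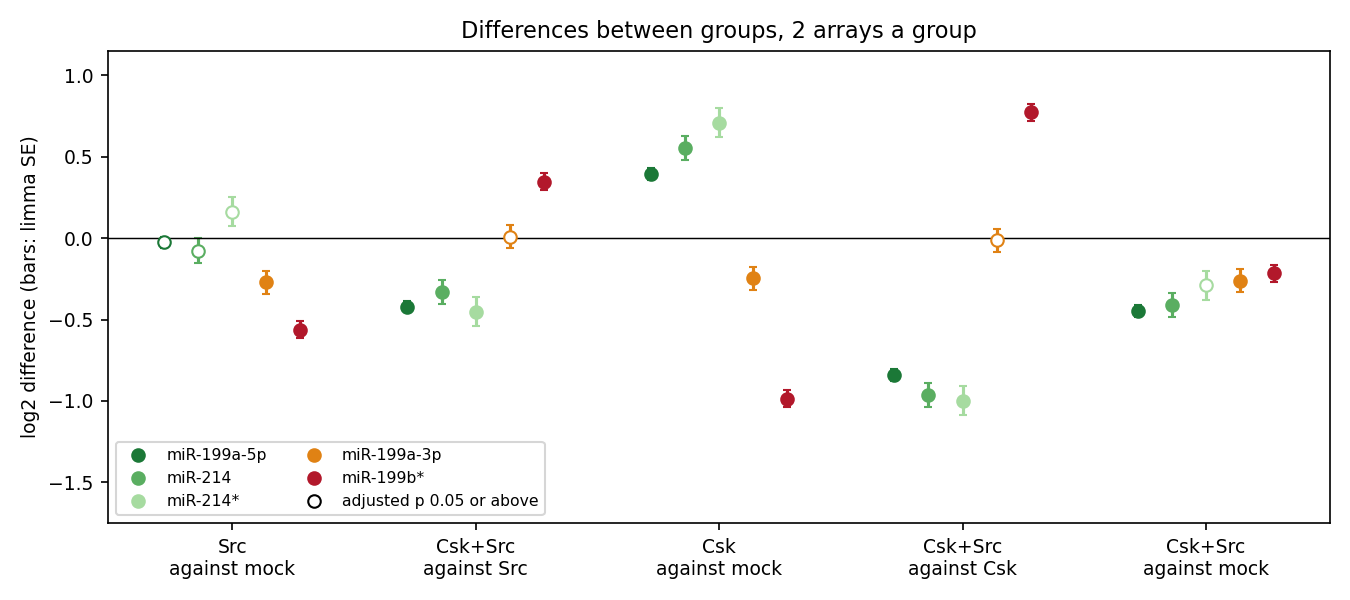
Log2 differences of the 5 microRNAs (y axis, bars are limma standard errors) in the comparisons between groups of 2 arrays (x axis). The Dnm3os arms miR-199a-5p, miR-214 and miR-214* lie above 0 in Csk against mock and below 0 in Csk+Src against Csk, and miR-199b* lies on the opposite side in both.

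Whether the difference between cells with and without added c-Src depended on Csk was tested with the interaction, the difference Csk+Src minus Csk less the difference Src minus mock. For 4 of 5 members it passed, where 50.6% of all tested microRNAs passed, 13.6% higher and 37% lower. The interaction was -0.81 for miR-199a-5p (SE 0.05, adjusted p = 0.000252), -0.89 for miR-214 (SE 0.11, adjusted p = 0.00193) and -1.16 for miR-214* (SE 0.13, adjusted p = 0.00135). It was 1.33 for miR-199b* (SE 0.07, adjusted p = 0.000193), the member that was lower with c-Src in cells without Csk and higher with c-Src in cells with Csk. All 4 passed under the 4 other scalings and in all 8 fits that left out 1 array. After normexp only miR-199b* passed (1.11, adjusted p = 0.0452), with miR-199a-5p at -0.51 (adjusted p = 0.124), miR-214 at -0.58 (adjusted p = 0.124) and miR-214* on the other side of 0 (0.49, adjusted p = 0.34). The 1 bright probe of miR-214* alone gave -0.53 (adjusted p = 0.0283), with both Csk+Src arrays set to the floor used for single probes. Without Csk array 2 the values were -0.62 (miR-199a-5p), -0.64 (miR-214), -1.19 (miR-214*) and 1.54 (miR-199b*). For miR-199a-3p the interaction was 0.26 (SE 0.10, adjusted p = 0.0844), and it passed without Csk array 2 (0.53, adjusted p = 0.0069).

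Csk alone was also set against c-Src alone, a comparison added later, to place neighbours in the order of levels. There 4 of 5 members passed, where 63% of all tested microRNAs passed, 36.6% higher and 26.3% lower. miR-214 (0.63, adjusted p = 0.00104), miR-214* (0.54, adjusted p = 0.00355) and miR-199a-5p (0.42, adjusted p = 0.000311) were higher in Csk than in Src cells. miR-199b* was lower (-0.42, adjusted p = 0.00128), and miR-199a-3p differed by 0.02 (adjusted p = 0.827). miR-199a-5p did not pass with quantile normalization (0.22, adjusted p = 0.172), without scaling (0.19, adjusted p = 0.136) or after normexp (0.35, adjusted p = 0.0724). miR-214* did not pass with median scaling (0.35, adjusted p = 0.0545), without scaling (0.31, adjusted p = 0.146) or after normexp (0.25, adjusted p = 0.561), nor did miR-199b* after normexp (-0.35, adjusted p = 0.0753). The neighbours in the order of miR-199b*, which was mock, Csk+Src, Src and Csk, each differed in limma's test with all arrays. For Csk+Src against mock this ended in the 6 fits named above, with the percentile over all mouse microRNAs (-0.05, adjusted p = 0.647), without scaling (-0.03, adjusted p = 0.857), after normexp (-0.15, adjusted p = 0.278) and with no detection filter (-0.22, adjusted p = 0.132). For Csk+Src against Src it ended with quantile normalization, without scaling and after normexp (0.31, adjusted p = 0.219).

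Ratios within an array between members above the floor do not depend on a scaling by 1 factor per array, and show only whether 2 members changed unequally. Over the 10 pairs, an exact permutation test over the 105 ways to split 8 arrays into 4 groups of 2 can give no p below 0.00952, and 7 pairs passed after adjustment over the 10. The share among pairs of all tested microRNAs was not computed, so the count is not set against other pairs. Of all tested microRNAs 73.7% differed among the groups in limma's F test. Of the 10, the ratio of miR-199a-5p to miR-199b* had the highest F statistic, with log2 means of -1.79 ± 0.02 (Csk+Src), -0.18 ± 0.02 (Csk), -1.02 ± 0.04 (Src) and -1.56 ± 0.04 (mock; SD, n = 2 each; exact p = 0.00952, adjusted p = 0.019). The miR-199b* to miR-214 ratio had log2 means of 1.78 ± 0.01 (Csk+Src), 0.05 ± 0.06 (Csk), 1.11 ± 0.04 (Src) and 1.59 ± 0.01 (mock; SD, n = 2 each; exact p = 0.00952, adjusted p = 0.019). In both ratios the Csk and Csk+Src cells lay at opposite ends, and no groups overlapped.

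The arms of the miR-199a hairpins also changed unequally. The ratio of miR-199a-3p to miR-199a-5p was 2.18 ± 0.04 in Csk+Src, 1.36 ± 0.11 in Csk, 1.75 ± 0.03 in Src and 2.0 ± 0.06 in mock cells on the log2 scale (SD, n = 2 each; exact p = 0.00952, adjusted p = 0.019). The identity of miR-199a-3p with the Mir199b arm, shown above, means that this is a ratio between signals with different sets of source genes. The ratio of miR-199a-5p to miR-214, the Dnm3os pair, spanned only -0.13 (Csk) to 0.08 (Src) on the log2 scale (exact p = 0.0476, adjusted p = 0.0595). The 2 arms of Mir214 had a ratio of 4.20 (Src) to 4.44 (mock; exact p = 0.495, adjusted p = 0.495), and miR-199a-5p with miR-214* did not pass either (exact p = 0.0762, adjusted p = 0.0847). These 3 pairs were the ones that did not pass; the values of miR-214* in Csk+Src cells are floor values.

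**Figure D3:**
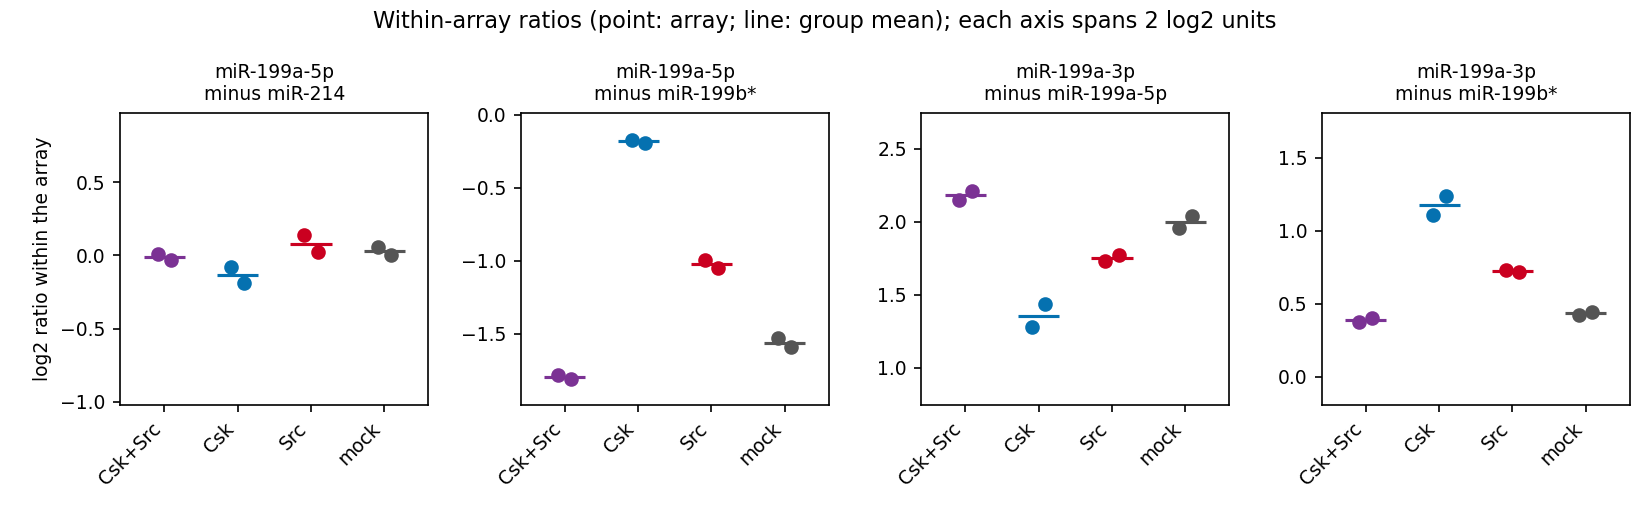
Within-array log2 ratios of member pairs (y axis, each spanning 2 log2 units) by group (x axis); points are arrays and lines are group means of 2 arrays. The 4 groups do not overlap in the ratio of miR-199a-5p to miR-199b*, whereas that of miR-199a-5p to miR-214 lies between -0.13 and 0.08 in the group means.

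Single probes were compared because a microRNA on this array is read by several. The 2 probes of miR-199a-5p gave 0.41 and 0.34 in Csk against mock, and -0.84 and -0.83 in Csk+Src against Csk. Those of miR-214 gave 0.55 and 0.56, and then -0.99 and -0.95, so each pair of probes agreed in direction and closely in size. All of these passed in a fit over 613 probes. The spread between the spots of a bright probe (10 spots each) was 2.1% to 9.99% as a coefficient of variation.

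The 2 probes of miR-199b* agreed in direction but not in size. In Csk against mock, A_54_P3538 gave -1.52 (adjusted p = 0.000222) and A_54_P3539 gave -0.75 (adjusted p = 0.00097). In Csk+Src against Csk they gave 1.33 (adjusted p = 0.000209) and 0.52 (adjusted p = 0.00203). The ratio between these probes differed among the groups, at -0.76 ± 0.03 (Csk+Src), -1.56 ± 0.05 (Csk), -1.03 (Src) and -0.79 (mock) on the log2 scale (n = 2 each; exact permutation p = 0.00952, adjusted p = 0.0381 over the 4 members with 2 bright probes), a test added after the probe values were seen. The size of the miR-199b* response therefore depends on the probe, and its direction does not. For miR-199a-3p, miR-199a-5p and miR-214 the same ratio did not pass (adjusted p = 0.571, 0.571 and 0.705). Taken alone, neither probe of miR-199a-3p passed in any comparison. In Csk+Src against mock neither probe of miR-199b* passed alone (-0.20, adjusted p = 0.107, and -0.23, adjusted p = 0.0551). Of the probes of miR-214, A_54_P2620 passed there (-0.39, adjusted p = 0.0282) and A_54_P2619 did not (-0.44, adjusted p = 0.0544).

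miR-214* rests on 1 probe. Of its 4 probes, 3 were well above background at every spot on 0 arrays, and A_54_P3523 (5 spots, spot variation 6.68% to 20.9%) on 7 of 8. That probe alone gave 0.30 in Csk against mock (adjusted p = 0.0471), -0.74 in Csk+Src against Csk (adjusted p = 0.00249) and -0.43 in Csk+Src against mock (adjusted p = 0.0299). In Src against mock it gave -0.21 (adjusted p = 0.156), the opposite sign to the summed probes, and in Csk+Src against Src -0.22 (adjusted p = 0.142). Its scaled signal on the Csk+Src arrays was 0.0214 and 0.0175, both under the floor of 0.0231 used for single probes. The differences of this probe against Csk+Src cells are therefore understated, that against Src cells included. The high level of miR-214* with Csk and the low level with Csk and c-Src thus held for this probe. The order of Src and mock did not. The rise in Csk against mock was smaller on this probe, at 0.30 beside 0.71 for the summed probes. The other 3 probes had signals between -3.02 and 2.71, and these enter the sum.

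**Figure D4:**
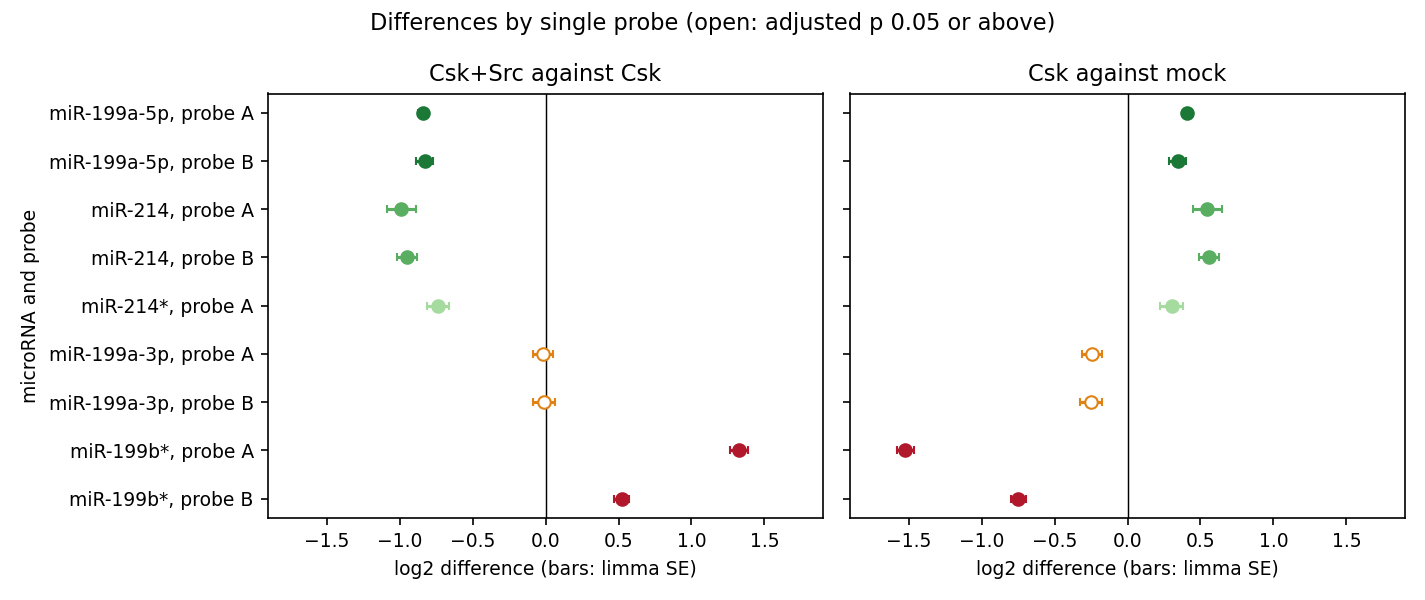
Log2 differences by single probe of the 5 microRNAs (x axis, bars are limma standard errors; open points have an adjusted p of 0.05 or above) in Csk+Src against Csk (left) and Csk against mock (right). The 2 probes of miR-199b* point the same way at sizes of -1.52 and -0.75 in Csk against mock, whereas the probe pairs of miR-199a-5p and miR-214 nearly coincide.

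The tested microRNAs most like each member were found by the root mean square difference of centred log2 levels over the 8 arrays, among the 242 others. Named are the 2 nearest outside the members. For miR-199a-5p they were miR-30c (0.0293) and miR-378 (0.0533), and miR-214 ranked 4 (0.0898) and miR-214* 14. For miR-214 they were miR-378 (0.057) and miR-185 (0.0786), with miR-199a-5p at rank 3 and miR-214* at rank 8. The 3 microRNAs called the Dnm3os arms thus stood near the top of each other's lists, though not at the top. They were grouped under that name with these levels known, so their nearness is no separate evidence that products of the transcript move together. miR-199a-3p, the other arm of Mir199a-2, ranked 114 for miR-199a-5p, 115 for miR-214 and 130 for miR-214*. For miR-214*, which sat at the floor in Csk+Src cells, the 2 most alike outside the members were miR-290-5p (0.123, rank 1) and miR-126-3p (0.136, rank 3), with miR-199a-5p at rank 2 (0.134) and miR-214 at rank 6. For miR-199b* they were miR-219 (0.133) and miR-421 (0.164). Of the members, miR-199a-3p ranked 15 there, miR-199a-5p 180, miR-214 199 and miR-214* 204. For miR-199a-3p the 2 most alike outside the members were miR-328 (0.07) and miR-331-3p (0.0847). On its list miR-199a-5p ranked 139, miR-199b* 140, miR-214 167 and miR-214* 178. These values describe profiles measured on the same arrays and carry no test.

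The wider set of mesenchymal or fibroblast microRNAs, 17 in all, was not uniform, and 15 of them were tested because miR-145 and miR-145* were detected on 0 arrays. In Csk against mock 5 were higher and 8 lower (median -0.22), where 38.3% and 16.9% of all tested microRNAs were, and the largest differences were miR-143 (-2.51, adjusted p = 4.39e-06), miR-10b (-1.65, adjusted p = 2.87e-05) and miR-222 (-1.07, adjusted p = 0.000394). In Csk+Src against Csk 8 were higher and 5 lower (median 0.20), where 19.3% and 41.6% of all were, with miR-143 at 2.19 (adjusted p = 6.63e-06), miR-10b at 2.04 (adjusted p = 9.8e-06) and miR-10a at -2.93 (adjusted p = 1.23e-05). The list went both ways: miR-143 and miR-10b had the signs of miR-199b* in these comparisons, which share the Csk arrays, and miR-10a those of the Dnm3os arms, at 0.74 in Csk against mock (adjusted p = 0.00141). In Src against mock 8 were higher and 5 lower (median 0.54), where 25.9% and 18.5% of all were. In Csk+Src against Src 5 were higher and 8 lower (median -0.58), where 15.6% and 29.2% of all were. In Csk+Src against mock 3 were higher and 3 lower, where 12.3% and 21.8% of all were, and 9 did not pass.

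The cell type was checked on markers of other cells. Of 7 epithelial microRNAs 1 was detected on any array and 0 were tested, with miR-200a, miR-200c, miR-141, miR-429, miR-203 and miR-205 undetected, and their summed scaled signal lay between 0.000394 and 0.0503. Its group means were 0.00159 in Csk+Src, 0.0451 in Csk, 0.023 in Src and 0.0235 in mock cells, with negative signals counted as 0. They had the order of the Dnm3os arms, but lie near or under the floor of 0.0193 applied to a single microRNA. The order of this sum was not tested. Of blood cell microRNAs 1 of 7 was detected, of muscle microRNAs 2 of 5, of embryonic stem cell microRNAs 2 of 10, and of neural microRNAs 3 of 4. The endothelial miR-126 arms were both detected on at least 1 array. Like the Dnm3os arms they were highest in Csk and lowest in Csk+Src cells, at a mean summed signal of 0.0457 in Csk+Src, 0.0968 in Csk, 0.0749 in Src and 0.0646 in mock cells. Only miR-126-3p was tested, and it rose in Csk against mock (0.57, adjusted p = 0.000789) and fell in Csk+Src against Csk (-1.10, adjusted p = 6.86e-05). It was also higher in Src against mock (0.21, adjusted p = 0.0411), where the Dnm3os arms did not pass. The part of these markers in the results was not tested.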

How the data were processed

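MicroRNA levels were read from 8 arrays, 2 for each of 4 groups. Agilent Feature Extraction 9.5.3.1 produced the deposited intensity values of the spots, per the file headers, after subtracting background and without scaling the arrays to each other. The deposited series table, used as the alternative without scaling, matched the unscaled gene-level intensity in 672 of 672 entries of each array (relative tolerance 1e-05). Spots not marked as outliers were averaged per probe, and probes of the same microRNA were added up, divided by the array's 75th percentile (611.9 to 805.7 signal units) among 187 microRNAs that every array detected, and raised to a floor of 0.0193 before log2. The floor was the 5th percentile of an array's detected values, as the median of the 8. Single probes had a floor of their own, 0.0231.

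A mouse microRNA was tested if some group detected it on both its arrays, which left 243. They were fitted with limma 3.58.1 in R 4.3.3 as group means over all arrays (4 residual and 5.09 total degrees of freedom). Two-sided p-values were adjusted by the Benjamini-Hochberg method over the 243, and an adjusted p under 0.05 was called. The smallest exact p for 2 arrays in each group is 0.333, so limma was used. The fit was tested on simulated data. Named were the 5 members, the 2 microRNAs most like each, at most 3 of the mesenchymal list per comparison, and microRNAs with a member's seed. The members, lists and tests were chosen with earlier results of these data known. Other scalings, normexp with an offset of 50, other probe summaries, filters and floors, a replicate block, and leaving out each array were tried as alternatives. The number of arrays limits the precision. Sequences came from RefSeq tables of assembly GRCm38.p6. Figures used matplotlib 3.10.9 (Python 3.11.15).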

Additional observations from a re-analysis of the deposited data

Results flagged for a closer look

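The difference between cells with and without added c-Src was not the same in cells with Csk as in cells without it, for 4 members, by limma's test of the interaction itself. miR-199a-5p had an interaction of -0.81, with -0.84 in Csk+Src against Csk and -0.03 in Src against mock. miR-214 had an interaction of -0.89, with -0.96 and -0.08 in the same 2 comparisons. miR-214* had an interaction of -1.16, with -0.998 and 0.16, on values at the floor in Csk+Src cells. miR-199b* had an interaction of 1.33, with 0.77 and -0.56, and changed sign between the 2 backgrounds.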

How the results depend on the processing

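Over 35 differences and 758 other fits, 621 kept sign and side of the threshold, 93 lost the call, 14 gained it, 29 changed sign and 1 came to 0 (miR-214*, Csk+Src against mock, deposited total gene signal). The number of members called changed by over 1.5 times as follows. After normexp background correction it was 1 in Src against mock (2 as reported), 0 in Csk+Src against Src (4), 1 in Csk against mock (5), 0 in Csk+Src against mock (4), 1 in the interaction (4) and 3 for any difference (5), and 2 of the member pairs passed (7). With no scaling it was 4 in Src against mock and 0 in Csk+Src against mock, where a percentile over all mouse microRNAs gave 1. With no detection filter it was 1 in Src against mock, 2 in Csk+Src against Src and 1 in Csk+Src against mock, and with only the compared groups 1 in Src against mock. Leaving out 1 array gave 1 to 2 in Src against mock, 2 to 4 in Csk+Src against Src (2 without Csk+Src array 1) and 1 to 4 in Csk+Src against mock. In Csk+Src against Csk no setting moved the count by that much.

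Of the changes of sign, 12 had a call on one side, and 17 had none: 10 of miR-199a-3p, and 7 in Src against mock, among them miR-214* after normexp (-0.685). With a call, miR-199a-3p turned to 0.0337 in Src against mock without scaling, to 0.332, 0.162 and 0.226 in Csk+Src against Csk with the percentile over all mouse microRNAs, median scaling and quantile normalization (-0.0890 to 0.258 over the fits without 1 array, the highest without Csk array 2), and to -0.166 and -0.190 in Csk against Src with median scaling and quantile normalization (and with no call to -0.0919 with the percentile over all mouse microRNAs and -0.207 without scaling). Without scaling miR-199a-5p (0.28) and miR-214 (0.229) turned in Src against mock. After normexp miR-214* turned in Csk+Src against Src (0.0508), Csk against mock (-0.437) and the interaction (0.488). With normexp the median of all tested microRNAs lay at 0.0408, -0.29 and 0.313 in these comparisons, and at -0.481 in Src against mock. The normexp setting adds 50 signal units to each spot, whereas the summed signal of miR-214* was 10.4 to 29.6. The cause was not tested.

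With the replicate number as a block, the members called were 2 in Src against mock, 4 in Csk+Src against Src, 5 in Csk against mock, 4 in Csk+Src against Csk, 5 in Csk+Src against mock and 5 in the interaction. The additions were miR-214* in Csk+Src against mock (adjusted p = 0.0353) and miR-199a-3p in the interaction (adjusted p = 0.0197). Same-numbered arrays shared a number and a slide row, and the labels do not pair them. Their deviations correlated at -0.0912 to 0.438 over 6 pairs of groups, over 0.1 in 3.

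The split of all microRNAs into higher and lower also depended on the scaling. With a percentile over all mouse microRNAs it was 41 and 52 in place of 63 and 45 in Src against mock, 62 and 62 in place of 93 and 41 in Csk against mock, 82 and 58 in place of 47 and 101 in Csk+Src against Csk, 63 and 39 in place of 38 and 71 in Csk+Src against Src, 56 and 30 in place of 30 and 53 in Csk+Src against mock, and 69 and 34 in place of 33 and 90 in the interaction. miR-214* is limited by signal close to background.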
